A study of Euphorbia esula with 15 samples.

Results

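Alpha- and beta-tubulin transcripts of leafy spurge (Euphorbia esula) crown buds were followed from before shoot removal to 72 h after it. The tubulins were the contigs of the assembly whose best Arabidopsis hit was one of 10 alpha- or beta-tubulin gene IDs: AT1G50010, AT5G19770, AT1G04820 and AT4G14960 for alpha-tubulin, and AT1G75780, AT5G62690, AT5G44340, AT1G20010, AT5G12250 and AT5G23860 for beta-tubulin. These IDs were the best hit of 190 of the 569227 contigs, and no contig had AT5G62690. The 190 contigs lay in 124 of the 223732 components, the assembler's groups of related contigs that stand in for genes, and 57 of these components had tubulin counts. The tubulin contigs of a component were added together, and 16 such sums had a mean normalized count above 5 at any time point, 4 of alpha- and 12 of beta-tubulin. The remaining 41 sums were not tested. The smallest sum kept was comp128449_c3, at 5.72 at 0 h, and the largest left out were comp108169_c0, with 4.905 at 24 h, and comp120240_c1, with 4.82 at 0 h. Of the 16 sums, 14 exceeded 5 at all 4 time points, comp124074_c0 at 3 of them and comp128449_c3 only at 0 h, the time at which it was highest.

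Alpha- and beta-tubulin join into dimers that polymerize into microtubules, and plants carry several genes for each subunit. In growing plant tissue cortical microtubules guide the deposition of cellulose and so the direction in which cells expand, while the preprophase band, spindle and phragmoplast carry cells through division. In animal cells the pool of free dimers feeds back on the stability of tubulin mRNA.

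Paradormancy is a state in which buds stay inactive because of signals from other parts of the same plant, and removal of the shoot releases it. Plants of the cultivar 1984-ND001 were grown in a greenhouse under an 18 h photoperiod and held for 1 week in a growth chamber at 27 C with a 16 h photoperiod, without glyphosate. Buds were taken from intact plants (0 h, 3 libraries) and 6, 24 and 72 h after the stem was excised at the soil surface (4 libraries each), to follow the change from paradormancy to shoot growth. Per the study's methods each library held pooled buds of many plants of a single biotype, and all 15 libraries shared a sequencing lane. The labels give the age of the plants as about 4 months in one place and about 3 in another, and a harvest hour of midnight where the study's methods give noon. Poly A RNA was sequenced, and the table holds expected counts, which are estimated numbers of fragments and need not be whole. In whole buds fewer cells of a type and less RNA per cell cannot be told apart, and levels of different genes are not compared because the counts are not per length, so that abundant and scarce refer to counts alone.

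Library totals were 1847115 to 8766393 expected counts, with overlapping ranges at the 4 time points, and counts are given after division by median-of-ratios size factors. Of 8 Arabidopsis gene IDs marking the shoot meristem 7 had contigs, with a summed normalized count of 1389 to 1834 over the 15 libraries, while the ID AT2G17950 had none. Of 5 root IDs AT3G20840 had no contig and AT3G11260 had 2 expected counts in all libraries together, and the summed root markers ran from 178 to 227 in the 0 h libraries, from 127 to 148 in those of 6 h, from 96.1 to 136 in those of 24 h and from 144 to 189.8 in those of 72 h. The root marker sum had its lowest mean at 24 h, when most tubulins were lowest, and its part in their changes was not tested. Most of its counts lay on AT4G37650, with 1941 expected counts in all libraries together, against 516 for AT1G08090 and 48 for AT1G51190. The shoot meristem sum was 1389 to 1581 in the 0 h libraries, 1453 to 1729 in those of 6 h and 1470 to 1681 in those of 24 h. In those of 72 h it was 1638 to 1834, above every 0 h library, and its part in the tubulin changes was not tested. The 4 flower IDs summed to 9.94 to 27.5. Counts on contigs whose best hit was not a green plant made up 0.124 to 0.153% of a library at 0 h and 6 h and 0.164 to 0.189% at 24 h and 72 h.

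Most tubulin sums were lowest at 24 h and highest at 72 h. In the comparison of 24 h with 0 h edgeR's quasi-likelihood test called 12 of the 16 sums lower and 1 higher (adjusted p under 0.05). Of all 23265 rows tested 21.6% were called lower and 20.2% higher, 41.8% in all. From 24 h to 72 h 11 sums were higher and 1 was lower, against 21.9% and 20.5% of all rows (42.4% in all). Against 0 h, 7 sums stood higher at 72 h and 0 lower, where 7.04% and 6.09% of all rows did (13.1% in all). Only 1 sum was higher and 1 lower at 6 h than at 0 h, against 7.85% and 7.42% of all rows (15.3% in all), so the share of tubulins called at 6 h was close to that of all rows. From 6 h to 24 h 2 sums were higher and 7 lower, against 15.3% and 18.0% of all rows (33.3% in all). From 6 h to 72 h 7 were higher and 0 lower, against 10.1% and 8.51% of all rows (18.6% in all). Both counts of 0 were also 0 at an unadjusted p under 0.05, in DESeq2 and in limma. A difference of any kind among the 4 time points was called for 12 of the 16 sums, against 53.8% of all rows.

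The median log2 fold change of the 16 sums compared with 0 h was -0.25 for 6 h, -0.66 for 24 h and 0.23 for 72 h, and from 24 h to 72 h it was 0.74. Over all rows the same medians were -0.0042, 0.015, 0.025 and -0.060. The lowest mean was at 24 h in 12 sums and the highest at 72 h in 10 sums. Several of the calls at 72 h compared with 0 h were lost when a single library was left out. Their number was 3 without 0 h replicate 3, and 4 without 0 h replicate 1 or without 72 h replicate 1, 3 or 4. At 6 h compared with 0 h 1 call was left without 0 h replicate 1 or 3. Without 6 h replicate 2 edgeR called 0, and the sums called with it, comp116041_c0 and comp66247_c0, had adjusted p-values of 0.0716 and 0.0557. The p-values set differences between time points against the spread between libraries of pooled buds, not against that between single plants.

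**Figure D1:**
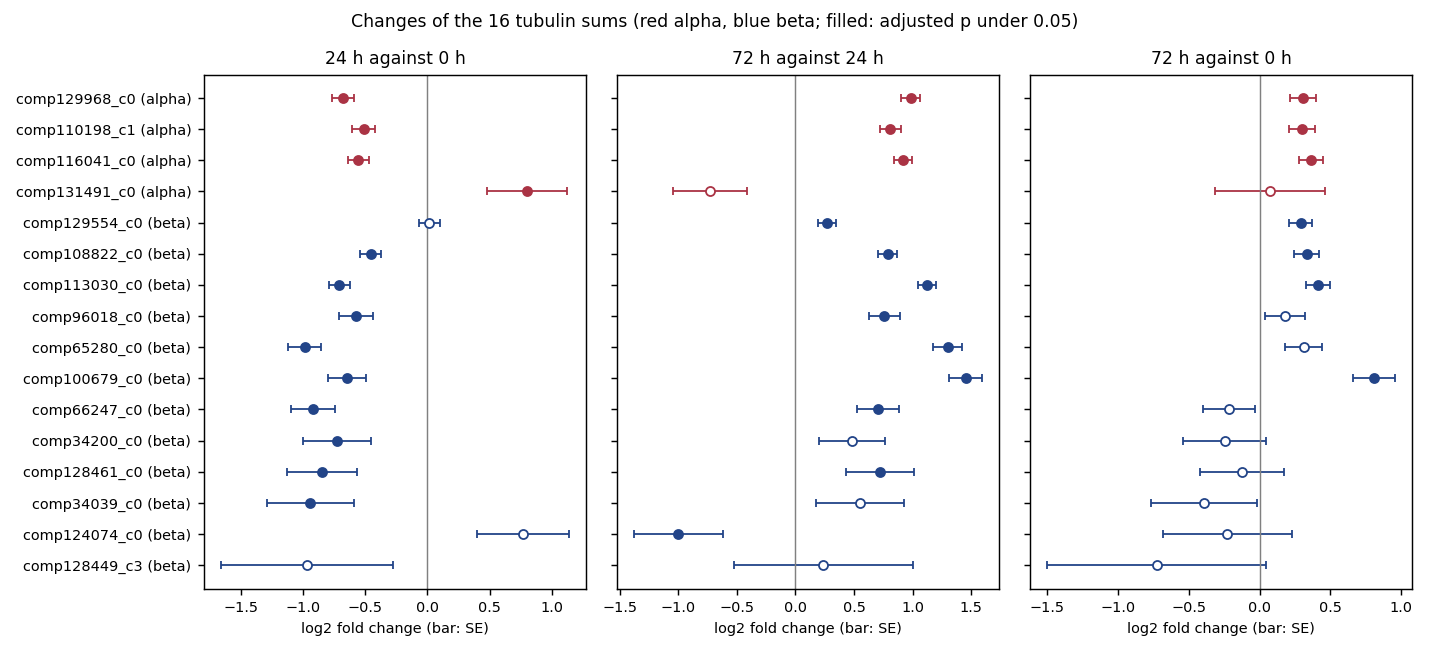
Log2 fold change with its SE of each of the 16 tubulin sums (rows, red for alpha- and blue for beta-tubulin) for 24 h against 0 h, 72 h against 24 h and 72 h against 0 h; filled points had an edgeR adjusted p under 0.05. In the first panel 12 filled points lie left of 0, in the second 11 lie right of it, and comp129554_c0 sits at 0.02 in the first panel.

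The 3 abundant alpha-tubulin sums fell at 24 h and rose at 72 h. The largest was comp129968_c0, annotated as a tubulin alpha chain, with normalized counts of 7043, 7752 and 7456 in the 0 h libraries, 6245, 6052, 7160.5 and 7295 in those of 6 h, 4598, 4299, 4452 and 5209 in those of 24 h and 9283, 8367, 9196 and 9811 in those of 72 h. Every 24 h library lay below every library of the other time points, and every 72 h library above them. Its log2 fold change was -0.68 ± 0.09 (SE, edgeR adjusted p = 1.88e-06) from 0 h to 24 h and 0.98 ± 0.08 (SE, edgeR adjusted p = 2.02e-09) from 24 h to 72 h. At 72 h it stood 0.30 ± 0.09 above 0 h on the log2 scale (SE, edgeR adjusted p = 0.0261), a call lost without 0 h replicate 1 or 3 or without 72 h replicate 1, 3 or 4, with adjusted p-values up to 0.11.

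A second alpha-tubulin, comp110198_c1, had counts of 2914, 3249.5 and 3177 in the 0 h libraries, 2694, 2409, 3052 and 3046 in those of 6 h, 2189, 2235, 1873 and 2438 in those of 24 h and 3797, 3622, 3885 and 4008 in those of 72 h. The 72 h libraries were all higher than the rest, and the 24 h libraries overlapped with 6 h only through 24 h replicate 4 and 6 h replicate 2. It fell by 0.51 on the log2 scale from 0 h to 24 h (SE 0.09, edgeR adjusted p = 0.0001) and rose by 0.81 ± 0.09 (SE, edgeR adjusted p = 7.29e-08) from 24 h to 72 h. Its difference of 0.30 ± 0.09 (SE, edgeR adjusted p = 0.0369) between 72 h and 0 h did not pass with TMM scaling (adjusted p = 0.0515) or without any one of the 0 h replicates 1 to 3 or 72 h replicates 1, 3 and 4, with adjusted p-values up to 0.151.

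The alpha-tubulin comp116041_c0, whose contigs had the best hit AT5G19770, was the one sum called higher at 6 h than at 0 h. Its counts were 617, 706 and 589 in the 0 h libraries, 739, 803, 726 and 811 in those of 6 h, 406, 457, 422 and 441 in those of 24 h and 724, 832, 831 and 874 in those of 72 h. All 6 h libraries exceeded all 0 h libraries, and all 24 h libraries lay below both. The log2 fold change was 0.28 ± 0.08 (SE, edgeR adjusted p = 0.0222) at 6 h, and the adjusted p was 0.0712 without a filter on low counts and 0.0602 to 0.127 without 0 h replicate 1 or 3 or 6 h replicate 2 or 4. From 0 h to 24 h it was -0.56 ± 0.08 (SE, edgeR adjusted p = 1.04e-05), and from 6 h to 24 h -0.84 ± 0.08 (SE, edgeR adjusted p = 1.99e-08). Its 72 h level exceeded 0 h by 0.36 ± 0.08 (SE, edgeR adjusted p = 0.00485) on the log2 scale and differed from 6 h by 0.08 ± 0.08 (SE, edgeR adjusted p = 0.547).

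The scarce alpha-tubulin comp131491_c0 was the only sum of the 16 called higher at 24 h than at 0 h. It had 12.2, 24.9 and 7.86 in the 0 h libraries, 6.17, 9.28, 9.79 and 8.18 in those of 6 h, 22.7, 26.6, 15.4 and 26.8 in those of 24 h and 15.7, 8.56, 20.7 and 16.5 in those of 72 h. The groups overlapped, since 0 h replicate 2 was higher than 24 h replicates 1 and 3. The log2 fold change was 0.80 ± 0.32 (SE, edgeR adjusted p = 0.0496), and DESeq2, limma, TMM scaling, the fit without a filter, the fit of 0 h and 24 h alone, the replicate block and the omission of any of 11 libraries put the adjusted p above 0.05, up to 0.353 without 0 h replicate 3. Contigs with a plant best hit held 88.3% of its counts, the lowest share among the sums led by a plant contig.

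**Figure D2:**
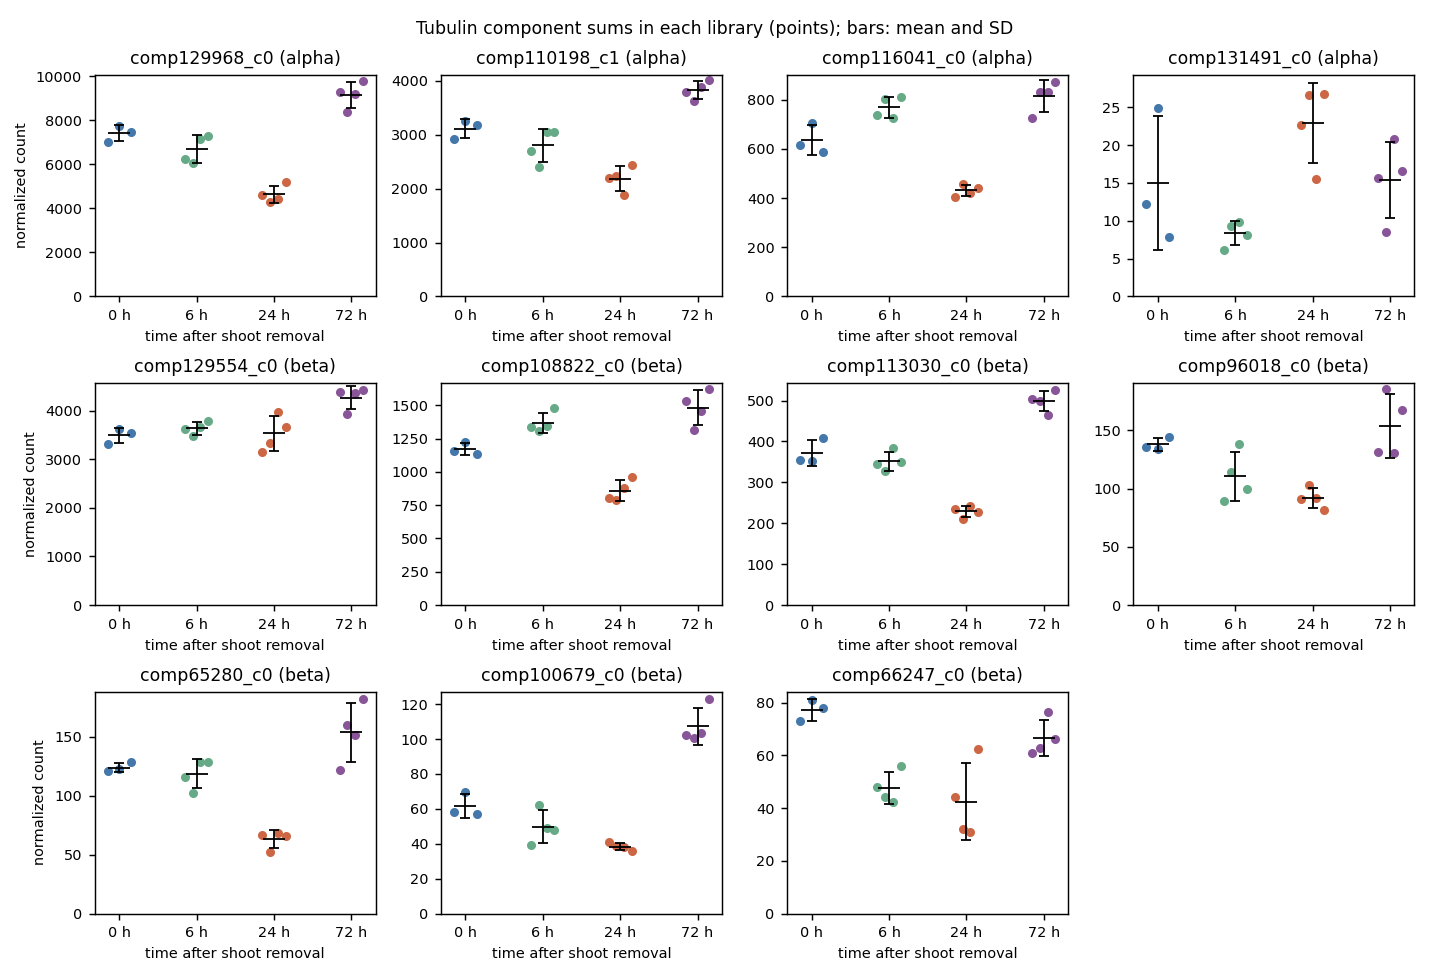
Normalized counts of 11 tubulin sums (panels) in each library (points), placed by time after shoot removal (0, 6, 24 or 72 h), with the mean and SD in black and each vertical axis starting at 0. The 24 h libraries are the lowest in most panels, while those of comp129554_c0 lie level with 0 h and 6 h and those of comp131491_c0 lie higher.

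Among the beta-tubulins 9 of 12 sums were called lower at 24 h than at 0 h, and the one with the highest count was not among them. That sum, comp129554_c0, had 3327, 3629.7 and 3538 in the 0 h libraries, 3620.5, 3472, 3677 and 3783 in those of 6 h, 3154, 3342, 3971 and 3673 in those of 24 h and 4384, 3929, 4363 and 4419 in those of 72 h. The 24 h libraries spanned the 0 h and 6 h libraries, and 72 h was higher than 0 h and 6 h in all its libraries. The log2 fold change was 0.02 ± 0.08 (SE, edgeR adjusted p = 0.904) at 24 h and 0.29 ± 0.08 (SE, edgeR adjusted p = 0.0227) at 72 h compared with 0 h. The 72 h call was lost without 0 h replicate 1 or 3 or 72 h replicate 1, 3 or 4, with adjusted p-values of 0.0517 to 0.103.

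The next beta-tubulin, comp108822_c0, annotated as tubulin beta-1 chain-like, followed the alpha-tubulins. Its counts were 1158, 1226 and 1138 in the 0 h libraries, 1339, 1305, 1348 and 1481 in those of 6 h, 803, 786, 881 and 958 in those of 24 h and 1529, 1313, 1458 and 1625 in those of 72 h. Every 24 h library was lower than any other library. Its log2 fold change was -0.46 ± 0.09 (SE, edgeR adjusted p = 0.000144) from 0 h to 24 h, -0.68 ± 0.08 (SE, edgeR adjusted p = 6.07e-07) from 6 h to 24 h and 0.79 ± 0.08 (SE, edgeR adjusted p = 3.13e-08) from 24 h to 72 h. At 6 h all its libraries exceeded those of 0 h, but the difference of 0.22 ± 0.09 on the log2 scale did not pass (SE, edgeR adjusted p = 0.0859). Its 72 h level exceeded 0 h by 0.33 ± 0.09 (SE, edgeR adjusted p = 0.0119), with an adjusted p of 0.0531 without 0 h replicate 3.

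The sum comp113030_c0, annotated as beta-tubulin 1, had 354, 353 and 409 in the 0 h libraries, 345, 328, 383 and 350.5 in those of 6 h, 235, 211, 243 and 226 in those of 24 h and 505, 499, 466 and 527 in those of 72 h. Its 24 h and 72 h libraries were the lowest and the highest of all, with no overlap. The changes were -0.71 ± 0.08 (SE, edgeR adjusted p = 4.49e-07) from 0 h to 24 h, 1.12 ± 0.08 (SE, edgeR adjusted p = 1.2e-10) from 24 h to 72 h and 0.41 ± 0.09 (SE, edgeR adjusted p = 0.00174) from 0 h to 72 h on the log2 scale.

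Of the less abundant beta-tubulins comp65280_c0, with the best hit AT1G75780, had the largest called decrease at 24 h. It had 121, 123 and 128 in the 0 h libraries, 116, 102, 129 and 128 in those of 6 h, 66.4, 51.9, 68.2 and 65.8 in those of 24 h and 122, 159.8, 152 and 182 in those of 72 h. Every 24 h library lay below every other library. The log2 fold change was -0.99 ± 0.13 (SE, edgeR adjusted p = 2.37e-06), with a mean at 24 h of 0.509 times that at 0 h, and it rose by 1.30 ± 0.13 (SE, edgeR adjusted p = 1.55e-08) to 72 h. The sum comp100679_c0, with the best hit AT5G12250, had the largest called increase at 72 h, with counts of 58.1, 69.6 and 57.0 in the 0 h libraries, 39.5, 62.4, 48.9 and 47.9 in those of 6 h, 40.8, 38.8, 38.0 and 35.8 in those of 24 h and 102, 100.4, 104 and 123 in those of 72 h. Its 72 h libraries were all above the rest, while its 6 h and 24 h libraries overlapped. It changed by -0.65 ± 0.15 (SE, edgeR adjusted p = 0.00142) at 24 h and by 0.81 ± 0.15 (SE, edgeR adjusted p = 0.000609) at 72 h compared with 0 h on the log2 scale. From 24 h to 72 h its mean rose 2.80-fold, with a fitted log2 change of 1.45 ± 0.14 (SE, edgeR adjusted p = 1.1e-08).

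At 6 h compared with 0 h 13 of the 16 sums had a negative log2 fold change. The beta-tubulin comp66247_c0 was the only one called lower. It had 72.9, 81.2 and 77.9 in the 0 h libraries, 48.1, 44.4, 42.4 and 56.1 in those of 6 h, 44.3, 32.1, 30.9 and 62.5 in those of 24 h and 60.9, 62.8, 76.5 and 66.1 in those of 72 h. All 6 h and 24 h libraries were lower than the 0 h libraries. Compared with 0 h the log2 fold change was -0.69 ± 0.19 (SE, edgeR adjusted p = 0.0123) at 6 h and -0.92 ± 0.18 (SE, edgeR adjusted p = 0.000229) at 24 h. For 72 h it was -0.22 ± 0.19 (SE, edgeR adjusted p = 0.508), which did not pass the test. Without 6 h replicate 2 the adjusted p at 6 h was 0.0557. The sum comp96018_c0 had 135, 134 and 145 in the 0 h libraries, 89.4, 114, 139 and 99.3 in those of 6 h, 91.1, 103, 92.0 and 81.4 in those of 24 h and 132, 185, 131 and 168 in those of 72 h. The 24 h libraries were all below those of 0 h and 72 h and overlapped with 6 h. It fell at 24 h by 0.58 on the log2 scale (SE 0.14, edgeR adjusted p = 0.00163) and rose by 0.76 ± 0.13 (SE, edgeR adjusted p = 5.36e-05) to 72 h.

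The 5 scarcest beta-tubulin sums had mean counts below 31 at every time point. The plant sums comp34200_c0, comp128461_c0 and comp34039_c0 went from 30.7, 19.98 and 14.1 at 0 h to 19.6, 11.9 and 7.99 at 24 h. Their log2 fold changes were -0.73 ± 0.27, -0.85 ± 0.28 and -0.94 ± 0.35 (SE, edgeR adjusted p = 0.0356, 0.019 and 0.0351). Across omissions of each of the 15 libraries in turn they stayed called in 10, 13 and 10 cases, and each had its highest adjusted p, 0.102, 0.0681 and 0.135, without 24 h replicate 2. Neither comp34200_c0 nor comp34039_c0 was called by DESeq2 or limma. The sum comp128449_c3 had 0.65 to 13.3 counts per library at 0 h and was called in no comparison. The sum comp124074_c0 was the one whose contig had its best hit in a protist, and its counts were highest at 24 h, with 10.53, 6.63 and 7.20 in the 0 h libraries, 1.23, 3.61, 1.63 and 7.01 in those of 6 h, 13.0, 15.4, 11.6 and 17.9 in those of 24 h and 7.85, 8.56, 7.97 and 0 in those of 72 h. Its level was higher at 24 h than at 6 h by 1.97 ± 0.41 (SE, edgeR adjusted p = 0.000578) and lower at 72 h than at 24 h by 1.00 on the log2 scale (SE 0.38, edgeR adjusted p = 0.0357). The latter, the only tubulin call lower at 72 h than at 24 h, was not made by DESeq2 (adjusted p = 0.0579) or without 24 h replicate 2 or 4 or 72 h replicate 1, 3 or 4 (adjusted p up to 0.0765). At 24 h the non-plant share of counts stood at 0.164 to 0.189%, and the part of other organisms in this sum was not tested.

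The 24 h count of comp129554_c0 was made up of contigs that changed in opposite directions. All of its counts lay on 4 contigs, of which comp129554_c0_seq4 had the best hit AT5G12250, comp129554_c0_seq3 and comp129554_c0_seq7 the best hit AT5G23860, and comp129554_c0_seq8 the best hit AT1G75780. The contig comp129554_c0_seq4 had 1816, 1992 and 2071 in the 0 h libraries, 2332, 2145, 2300 and 2176 in those of 6 h, 2445, 2689.7, 3317 and 2889.5 in those of 24 h and 2466, 1980.5, 2282 and 2079 in those of 72 h. It was higher in all 24 h libraries than in any 0 h or 6 h library. In contrast comp129554_c0_seq3 had 604, 630.3 and 492 in the 0 h libraries, 485, 459.9, 503 and 579.8 in those of 6 h, 219, 180.2, 213 and 237 in those of 24 h and 774, 804, 725 and 882 in those of 72 h. Its 24 h libraries were all below the lowest other library, and its 72 h libraries all above the highest. The contig comp129554_c0_seq7 had 293, 372 and 291 in the 0 h libraries, 145, 187, 153 and 112 in those of 24 h and 437, 540.0, 613 and 556 in those of 72 h, and comp129554_c0_seq8 had 613, 635 and 683 in the 0 h libraries, 346, 285, 288 and 435 in those of 24 h and 707, 605, 742 and 903 in those of 72 h. For both, every 24 h library lay below every 0 h library.

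These contigs were tested in a fit in which each tubulin contig was a row of its own, a choice made after the contig counts had been seen. From 0 h to 24 h comp129554_c0_seq4 rose by 0.53 ± 0.10 (SE, edgeR adjusted p = 9.6e-05) on the log2 scale. Over the same interval comp129554_c0_seq3 changed by -1.44 ± 0.10 (SE, edgeR adjusted p = 3.14e-10), comp129554_c0_seq7 by -1.05 ± 0.13 (SE, edgeR adjusted p = 9.81e-07) and comp129554_c0_seq8 by -0.94 ± 0.13 (SE, edgeR adjusted p = 4.45e-06). From 24 h to 72 h comp129554_c0_seq4 changed by -0.37 ± 0.09 (SE, edgeR adjusted p = 0.00171) and comp129554_c0_seq3 by 1.92 ± 0.10 (SE, edgeR adjusted p = 8.75e-13). Both directions held without each library in turn, with log2 fold changes at 24 h of 0.45 to 0.60 for comp129554_c0_seq4 and -1.55 to -1.36 for comp129554_c0_seq3. Of the component's count comp129554_c0_seq4 took 54.6 to 58.5% in the 0 h libraries, 77.5 to 83.5% in those of 24 h and 47.0 to 56.3% in those of 72 h. RSEM divides fragments among contigs by a statistical model, so where contigs share sequence a fragment's contig is uncertain.

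**Figure D3:**
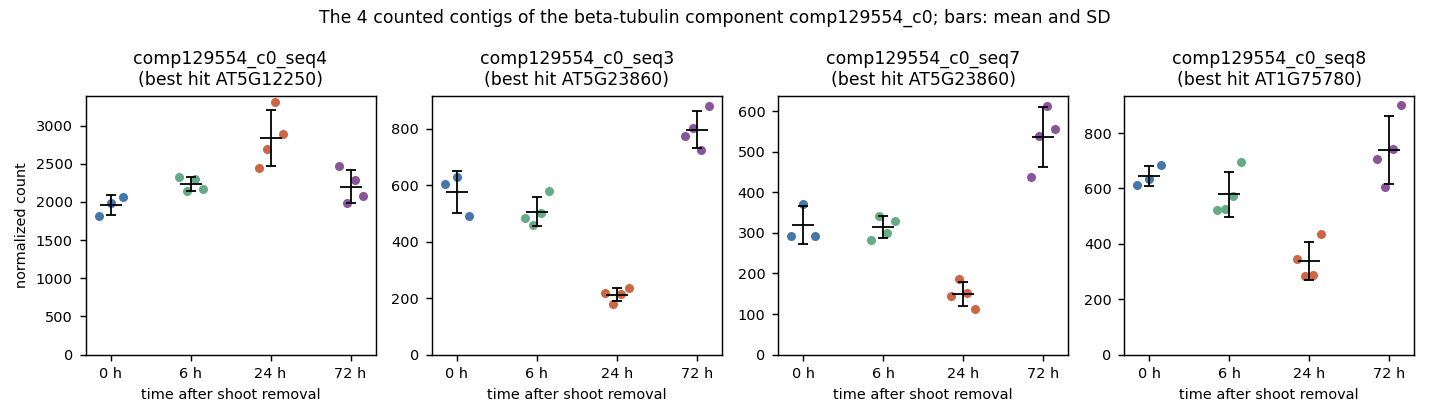
Normalized counts of the 4 contigs of the beta-tubulin component comp129554_c0 in each library (points) at 0, 6, 24 and 72 h, with mean and SD in black; vertical axes start at 0 and differ between panels. The contig comp129554_c0_seq4 is highest at 24 h (2445 to 3317) and the other 3 are lowest there.

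Of 26 tubulin contigs with a mean above 5 at any time point, 20 were lower at 24 h than at 0 h and 2 were higher, against 21.6% and 20.2% of all rows in that fit. The rows outside the tubulins were still component sums there, and several of the 26 contigs shared a component. Compared with 0 h 1 contig was higher and 2 were lower at 6 h (7.84% and 7.42% of all rows), and 9 were higher at 72 h (7.05% of all rows). The contigs higher at 24 h were comp129554_c0_seq4 and comp131491_c0_seq5. The alpha-tubulin component comp129968_c0 was also uneven. Its contigs with the best hit AT4G14960, comp129968_c0_seq1 and comp129968_c0_seq2, changed by -1.22 ± 0.09 (SE, edgeR adjusted p = 4.51e-10) and -1.28 ± 0.10 (SE, edgeR adjusted p = 8.22e-10) from 0 h to 24 h. The contig with the best hit AT1G50010, comp129968_c0_seq3, changed by -0.51 ± 0.09 (SE, edgeR adjusted p = 7.07e-05). Means went from 1517 to 651.5 for comp129968_c0_seq1 and from 5326 to 3751 for comp129968_c0_seq3. In comp113030_c0 the contigs of highest count with the best hits AT5G44340 and AT5G23860 both fell at 24 h. Their log2 fold changes were -0.65 ± 0.12 for comp113030_c0_seq1 and -0.76 ± 0.12 for comp113030_c0_seq4 (SE, edgeR adjusted p = 0.00012 and 1.42e-05). The scarcer comp113030_c0_seq2 changed by -0.86 ± 0.17 (SE, edgeR adjusted p = 0.000341). Neither comp113030_c0_seq7, at -0.82 ± 0.71, nor comp113030_c0_seq8, at 0.24 ± 0.68, was called (SE, edgeR adjusted p = 0.375 and 0.808). At 72 h comp113030_c0_seq4 stood 0.64 ± 0.12 (SE, edgeR adjusted p = 0.000568) above 0 h while the difference of comp113030_c0_seq1 was -0.22 ± 0.13 (SE, edgeR adjusted p = 0.284). The differences between contigs of 1 component were not themselves tested.

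Added together, the alpha-tubulin count was lower at 24 h by a larger share than the beta-tubulin count. Over the 15 sums led by a plant contig the alpha count went from 11183 ± 574 (SD, n = 3) at 0 h and 10267 ± 928 (n = 4) at 6 h to 7277 ± 588 (n = 4) at 24 h, and it was 13823 ± 771 (n = 4) at 72 h. The beta count was 5515 ± 202, 5733 ± 224, 4899 ± 430 and 6798 ± 374 at these times. From 0 h to 24 h the alpha count fell by 34.9% and the beta count fell by 11.2%, and they were higher by 89.95% and 38.8% at 72 h than at 24 h. At 72 h both were above 0 h by nearly the same share, 23.6% and 23.3%. The alpha count per beta count ran from 1.999 to 2.061 in the 0 h libraries, from 1.69 to 1.88 in those of 6 h, from 1.26 to 1.61 in those of 24 h and from 2.01 to 2.05 in those of 72 h. The 6 h and 24 h libraries lay below those of 0 h and 72 h without overlap. These sums over chosen members are given without a test, and the ratio is not one of proteins or molecules because contig length is not accounted for. The sum comp129554_c0 made up 63.4 ± 0.516% of the beta count at 0 h and 72.1 ± 1.66% at 24 h (SD, n = 3 and 4). Its mean was 3498 at 0 h and 3535 at 24 h, so the smaller fall of the beta count rested largely on this sum. Within it the mean of comp129554_c0_seq4 went from 1960 to 2835. Taken sum by sum, the median log2 fold change at 24 h was -0.53 for the alpha and -0.72 for the beta sums. The 15 sums led by a plant contig together took 0.391 ± 0.0165% of the library counts at 0 h. The share was 0.299 ± 0.0121% at 24 h and 0.485 ± 0.0166% by 72 h.

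**Figure D4:**
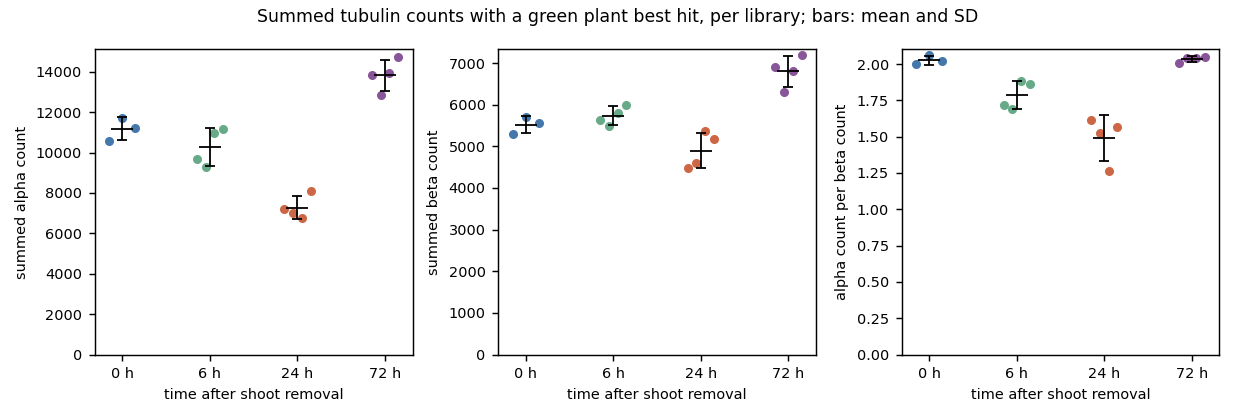
Summed normalized counts of the alpha-tubulins (left) and beta-tubulins (middle) with a plant best hit, and the alpha count per beta count (right), in each library (points) at 0, 6, 24 and 72 h, with mean and SD in black and axes starting at 0. The ratio is 1.26 to 1.61 at 24 h and 1.999 to 2.061 at 0 h.

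Alpha- and beta-tubulins with other Arabidopsis IDs showed both courses. Of 5 sums with the IDs AT5G19780, AT5G62700 and AT2G29550, 2 were lower and 1 higher at 24 h than at 0 h, and 4 were higher at 72 h. Of these 4 calls that of comp92781_c0 alone held without each library in turn. The alpha-tubulin comp101830_c0 had 2238, 2244 and 2203 in the 0 h libraries and 1680.5, 1702, 1694 and 1780 in those of 24 h, a log2 fold change of -0.38 ± 0.07 (SE, edgeR adjusted p = 0.000162). The beta-tubulin comp128449_c2 had 1494, 1636 and 1199 in the 0 h libraries and 560.0, 436, 479.8 and 597 in those of 24 h, and it fell by 1.48 on the log2 scale (SE 0.12, edgeR adjusted p = 1.06e-09). The beta-tubulin comp100112_c0 had the same best hit AT5G62700 and rose. It had 841, 839 and 869.8 in the 0 h libraries and 1128, 1503, 1510.4 and 1279 in those of 24 h, with a log2 fold change of 0.67 ± 0.09 (SE, edgeR adjusted p = 3.81e-06). The 24 h libraries did not overlap with 0 h in any of these 3 sums. With these sums included the alpha count per beta count was 1.66 to 1.75 at 0 h and 1.14 to 1.43 at 24 h.

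Other genes of the microtubule system were taken from lists of Arabidopsis IDs, whose roles are known from Arabidopsis. Their counts stand against 21.6% of all rows lower and 20.2% higher from 0 h to 24 h, 20.5% and 21.9% from 24 h to 72 h, and 6.09% and 7.04% from 0 h to 72 h. Gamma-tubulin and its complex start new microtubules. Of 8 sums in this list 4 were lower and 1 higher at 24 h than at 0 h, and the median log2 fold change was -0.19. Gamma-tubulin itself, comp136016_c0, had 412, 353 and 366 in the 0 h libraries, 243, 229, 228 and 261 in those of 24 h and 408, 419, 357 and 409 in those of 72 h. Its 24 h libraries were the lowest, with a log2 fold change of -0.66 ± 0.09 (SE, edgeR adjusted p = 1.52e-06), and it rose by 0.74 ± 0.08 (SE, edgeR adjusted p = 1.17e-07) to 72 h. The largest called change was that of the gamma-tubulin complex component comp135836_c0, at -0.98 ± 0.15 (SE, edgeR adjusted p = 1.93e-05). The more abundant comp137124_c1 and the complex-associated protein comp120044_c0 had log2 fold changes of 0.16 ± 0.08 (SE, edgeR adjusted p = 0.13) and 0.17 ± 0.09 (SE, edgeR adjusted p = 0.144). At 72 h compared with 0 h 0 of the 8 were called by edgeR, DESeq2 or limma, and 0 at an unadjusted p under 0.05.

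The folding cofactors assemble alpha- and beta-tubulin into dimers. Of 5 sums 1 was higher and 0 lower at 24 h by edgeR, with 1 lower at an unadjusted p under 0.05 and 0 by DESeq2 or limma, and the median was -0.01. The share called higher, 1 of 5, was close to the 20.2% of all rows. The higher one was a cofactor D sum, comp126998_c0, with 83.4, 84.5 and 73.3 in the 0 h libraries and 151, 174, 165 and 168 in those of 24 h and a log2 fold change of 1.04 ± 0.13 (SE, edgeR adjusted p = 5.91e-07). Another cofactor D sum, comp132165_c0, had -0.01 ± 0.11 (SE, edgeR adjusted p = 0.941). Chaperone E, comp117096_c0, had -0.21 ± 0.09, and cofactor C, comp136910_c0, had 0.20 ± 0.11 (SE, edgeR adjusted p = 0.0824 and 0.161).

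Microtubule-associated proteins bundle, extend or sever microtubules. Of 19 sums 8 were lower and 2 higher at 24 h than at 0 h, 12 were higher and 2 lower at 72 h than at 24 h, and 6 were higher at 72 h than at 0 h. The most abundant was comp118505_c0, annotated as a protein regulator of cytokinesis, at -0.27 ± 0.08 (SE, edgeR adjusted p = 0.00591) at 24 h. The microtubule organization protein comp134594_c0 had -0.20 ± 0.09 (SE, edgeR adjusted p = 0.0844), and comp121764_c0, without a named hit, had 0.03 ± 0.09 (SE, edgeR adjusted p = 0.779). The largest called change was that of another regulator of cytokinesis, comp122297_c0, with 28.4, 33.1 and 28.8 in the 0 h libraries, 5.67, 5.87, 7.72 and 7.81 in those of 24 h and 41.2, 49.1, 46.2 and 49.6 in those of 72 h. Its 24 h libraries were below all others, and its log2 fold change was -2.15 ± 0.24 (SE, edgeR adjusted p = 1.42e-07) at 24 h and 2.81 ± 0.22 (SE, edgeR adjusted p = 4.15e-10) from 24 h to 72 h.

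Kinesins move along microtubules, several of them in the spindle or phragmoplast. Of 12 sums 7 were lower and 1 higher at 24 h, 9 were higher and 1 lower at 72 h than at 24 h, and 6 were higher at 72 h than at 0 h. Their median log2 fold change was -0.70 at 24 h and 0.69 at 72 h compared with 0 h. The largest called change at 24 h was that of comp137793_c1, annotated as a kinesin, with 223, 274 and 147 in the 0 h libraries, 70.01, 75.9, 89.5 and 79.2 in those of 24 h and 347, 402, 354 and 371 in those of 72 h. The log2 fold change was -1.41 ± 0.15 (SE, edgeR adjusted p = 5.88e-08) at 24 h and 0.83 ± 0.14 (SE, edgeR adjusted p = 0.000216) at 72 h compared with 0 h. The 3 most abundant sums moved less at 24 h, with -0.12 ± 0.08 for comp110385_c0, -0.28 ± 0.08 for comp128765_c0 and -0.37 ± 0.17 for comp130895_c0 (SE, edgeR adjusted p = 0.224, 0.0078 and 0.0852). The 1 higher sum, comp108159_c0, had no counts on plant contigs.

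Cyclins and kinases of mitosis and a syntaxin made up the list of mitotic genes. Of its 7 sums 6 were higher at 72 h than at 0 h, with a median log2 fold change of 1.48 where that of the tubulins was 0.23, a gap that was not tested. At 24 h 2 were lower and 1 higher. The cyclin-dependent kinase comp100223_c0 had 254, 335 and 219 in the 0 h libraries, 96.4, 101, 94.0 and 104 in those of 24 h and 432, 416, 459 and 493 in those of 72 h. It changed by -1.42 ± 0.13 (SE, edgeR adjusted p = 8.61e-09) at 24 h and 0.76 ± 0.12 (SE, edgeR adjusted p = 0.000151) at 72 h compared with 0 h. The B-type cyclin comp112579_c0 had 0.03 ± 0.15 (SE, edgeR adjusted p = 0.881) at 24 h and 1.54 ± 0.15 (SE, edgeR adjusted p = 1.21e-07) at 72 h. The B-type cyclin comp135865_c1 was higher at 24 h, by 0.77 ± 0.09 (SE, edgeR adjusted p = 3.64e-07).

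Actin forms the other main cytoskeletal filament. Of 8 sums 5 were lower and 1 higher at 24 h, 4 were higher at 72 h than at 24 h, and 0 differed at 72 h from 0 h in edgeR, DESeq2 or limma or at an unadjusted p under 0.05. The dominant sum, comp128401_c0, annotated as actin 1, had 8171, 8704 and 9088 in the 0 h libraries and 6925, 6619, 7356 and 7868 in those of 24 h, a change of -0.27 ± 0.09 (SE, edgeR adjusted p = 0.0151) that was not called without 0 h replicate 3 (adjusted p = 0.0659). Larger changes were those of comp105523_c0 at -1.59 ± 0.21 and comp94754_c0 at -2.07 ± 0.27 (SE, edgeR adjusted p = 1.64e-06 and 1.62e-06). The call of the scarce comp132526_c0, at -2.57 ± 0.79 (SE, edgeR adjusted p = 0.0111), rested on 1 library. It had 1.62, 1.66 and 16.3 in the 0 h libraries and 1.70, 1.81, 0 and 1.12 in those of 24 h, so that the groups overlapped. Without 0 h replicate 3 it did not reach the minimum count and was not tested, and limma did not call it (adjusted p = 0.201). The 1 higher sum, comp131945_c0, had no counts on plant contigs.

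Cellulose synthases of the primary wall travel along cortical microtubules. Of 9 sums 5 were lower at 24 h and 4 at 72 h than at 0 h, and 1 was higher at 72 h than at 24 h. The most abundant, comp130697_c0, annotated as Cellulose synthase A catalytic subunit 6, had -0.27 ± 0.08 (SE, edgeR adjusted p = 0.00683) at 24 h and -0.21 ± 0.08 (SE, edgeR adjusted p = 0.0754) at 72 h. Another sum of that annotation, comp130732_c0, had -0.21 ± 0.09 (SE, edgeR adjusted p = 0.0572) and -0.40 ± 0.09 (SE, edgeR adjusted p = 0.00371). The third, comp115405_c0, had -0.24 ± 0.11 (SE, edgeR adjusted p = 0.076) and -0.41 ± 0.11 (SE, edgeR adjusted p = 0.0152). Of the 4 calls at 72 h compared with 0 h, that of comp130732_c0 alone held without each library in turn, and comp115405_c0 was not called without 0 h replicate 2 or 72 h replicate 2 (adjusted p up to 0.0717). The largest called change at 24 h was that of comp120124_c2, at -0.73 ± 0.21 (SE, edgeR adjusted p = 0.00674). This was also the sum higher at 72 h than at 24 h, a call made by neither DESeq2 nor limma. Over that interval DESeq2 called 1 sum of the list higher and limma 0. Of 6 sums for secondary wall cellulose and xylem, 1 was higher at 24 h, a share below the 20.2% of all rows. This was comp98765_c0 at 0.61 ± 0.21 (SE, edgeR adjusted p = 0.0199), not called without 0 h replicate 1 or 3 (adjusted p up to 0.166). The other abundant sums of that list, comp124738_c0 and comp94589_c0, had -0.10 ± 0.19 and -0.74 ± 0.40 (SE, edgeR adjusted p = 0.764 and 0.142).

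**Figure D5:**
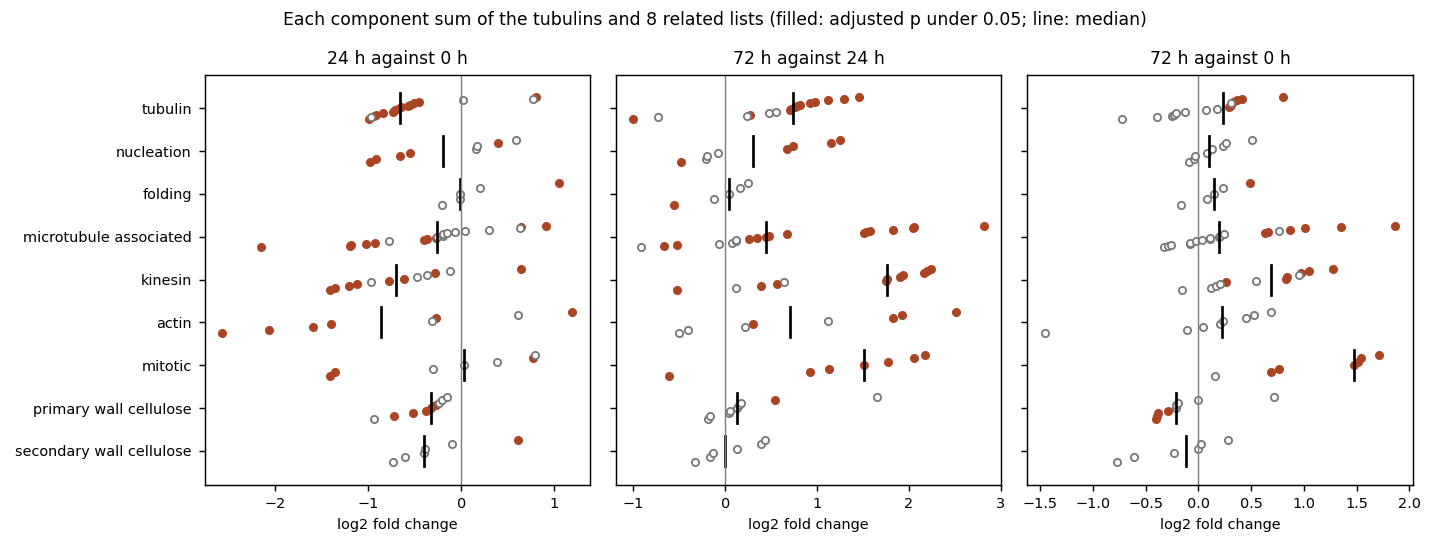
Log2 fold change (horizontal axes) of each component sum (points) of the tubulins and of 8 related lists (rows) for 24 h against 0 h, 72 h against 24 h and 72 h against 0 h; filled points had an edgeR adjusted p under 0.05 and black lines are medians. The medians at 24 h are -0.66 for the tubulins and -0.01 for the folding cofactors, and at 72 h 0.23 for the tubulins and 1.48 for mitosis.

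The 16 tubulin sums differed in how closely they followed the rest of the family. Pearson's r of a sum's log2 level with the summed other tubulins over the 15 libraries was 0.97 for comp129968_c0, 0.96 for comp113030_c0 and 0.95 for comp110198_c1. It was 0.66 for comp129554_c0, -0.26 for comp131491_c0 and -0.51 for comp124074_c0. The 15 libraries share 4 time points, and these values are a description only. Outside the tubulins 14126 rows with an Arabidopsis hit and a mean above 20 were searched for the course most like that of the summed tubulins. The closest was comp124091_c0, annotated as a 26S protease regulatory subunit 6B homolog, with r = 0.99 over 15 libraries. The others, all with r = 0.98 to 0.99, were comp111283_c0, annotated as 40S ribosomal protein S12, and comp119663_c0, comp111378_c1 and comp112370_c0, with the best hits AT5G35530, AT1G67430 and AT3G49010. The sum comp124091_c0 had 727, 747 and 728 in the 0 h libraries, 648, 668, 723 and 717 in those of 6 h, 490.2, 486, 506 and 552 in those of 24 h and 838, 799.8, 874 and 944 in those of 72 h. Its 24 h libraries were the lowest and its 72 h libraries the highest.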

How the data were processed

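Per the labels, poly A RNA of crown buds was prepared with a strand-keeping kit and paired-end sequenced. The authors trimmed reads with Sickle, assembled contigs with Trinity, annotated them by BLASTX and estimated fragments per contig and component with RSEM. The deposited expected counts are not normalized and need not be whole. The authors also deposited posterior probabilities of differential expression from EBSeq, which were not used.

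Contigs whose best Arabidopsis hit was a listed ID were summed per component, the other contigs of the component forming a separate row, and rows with a mean normalized count above 5 at any time point were kept. Expected counts were rounded and fitted with edgeR 4.0.16 in R 4.3.3 (quasi-likelihood, 4 groups, 15 libraries, 23265 rows) with median-of-ratios size factors and Benjamini-Hochberg adjustment over all rows, at a threshold of 0.05. The fit was tested on simulated data. Library totals of 1847115 to 8766393 limit the precision of sums with few counts, and replicates differed by more than counting noise.

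Alternatives were TMM scaling, DESeq2 1.42.0, limma 3.58.1 on log2(normalized count + 1), no filter, a normalized count above 10 in every library of a time point, whole components, only the groups compared, a replicate block and omission of each library. Contigs as rows and the study's filter, which asks for above 10 CPM throughout a time point, were added after the data had been seen. By the correlation of deviations from the group means the replicate numbers paired 6 h with 24 h, where all 4 same-number pairs lay above 0.1 (0.10 to 0.30), and in every other comparison at least 1 pair did not. Values per library are given for the 4 alpha and the 6 beta sums of highest mean and for the called sums with the largest increase and decrease compared with 0 h. Named in each related list are the 3 sums of highest mean and the called sum with the largest change at 24 h, and outside the lists the 5 rows most like the summed tubulins. Other sums that are named were chosen after their values were seen. The members and lists were chosen with earlier results of these data known. Python 3.11.15 with pandas 2.3.3, numpy 2.4.6 and matplotlib 3.10.9 was used for summaries and figures.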

Additional observations from a re-analysis of the deposited data

Results flagged for a closer look

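In 33 groups of 4 libraries of the 11 tubulin sums given library by library, 1 library stood apart from the other 3 in 3 groups, where chance flags about 1 in 20. For comp129554_c0 72 h replicate 2 had a normalized count of 3929, and the other 72 h libraries had 4363 to 4419. For comp65280_c0 24 h replicate 2 had 51.94, and the other 24 h libraries had 65.82 to 68.23. For comp100679_c0 72 h replicate 4 had 122.8, and the other 72 h libraries had 100.4 to 103.7. No single library was flagged in more than 1 of these sums.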

How the results depend on the processing

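Of 1578 values of single tubulin sums under the alternatives, 1507 kept their side of the threshold, 62 lost the call and 9 gained it. No value called in either fit changed direction, and changes of direction among uncalled values were not counted. Counts of called sums stayed within 1.5 times under TMM scaling, DESeq2, limma, a normalized count above 10 in every library of a time point, the study's filter of 10 CPM (10 sums tested, 9 called at 24 h compared with 0 h), whole components, the fit of only the groups compared and the replicate block. Without a filter on low counts 1 sum in place of 2 was called at 6 h compared with 0 h. With each library left out in turn the calls numbered 0 to 3 for 6 h and 0 h, 9 to 13 for 24 h and 0 h, 3 to 7 for 72 h and 0 h, 8 to 9 for 24 h and 6 h, 10 to 12 for 72 h and 24 h, 5 to 8 for 72 h and 6 h, and 12 to 14 for any difference. With contigs as rows, the log2 fold change of 0.02 of comp129554_c0 at 24 h compared with 0 h was replaced by values of both signs. These were 0.53 for comp129554_c0_seq4, -1.44 for comp129554_c0_seq3, -1.05 for comp129554_c0_seq7 and -0.94 for comp129554_c0_seq8. From 24 h to 72 h comp129554_c0_seq4 changed by -0.37 in place of 0.27.

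Replicate numbers met the criterion for pairing between 6 h and 24 h alone, and there the replicate block left the calls of 16 of 16 sums as they were. Over all 21 same-number pairs r was -0.08 to 0.42, above 0.1 in 11, and 12 of 15 libraries matched their own number best, a hint from the data and not the design. With the replicate block the calls numbered 3 at 6 h, 12 at 24 h and 7 at 72 h compared with 0 h. It added comp129968_c0 at 6 h (-0.20, edgeR adjusted p = 0.0445) and comp66247_c0 from 6 h to 72 h, and removed comp131491_c0 at 24 h. Depth limits the sums with means below 31: of their calls between pairs of time points, those of comp131491_c0 and comp124074_c0 from 6 h to 24 h held without each library in turn, and each of the others was lost without 1 or more libraries.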
